A study of Homo sapiens with 8 samples.

Results

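The genes described here encode the nuclear subunits of the mitochondrial respiratory chain and of ATP synthase, which were taken by symbol (NDUFA, NDUFB, NDUFC, NDUFS and NDUFV genes, SDHA to SDHD, UQCR genes, CYC1, COX4 to COX8 genes and ATP5 genes). The rule matched 90 of the 18377 genes read from the arrays, and 78 of them are known subunits. These comprised 34 of 37 listed nuclear subunits of complex I, 3 of 4 of complex II, 8 of 10 of complex III, 16 of 18 of complex IV and 17 of 18 of complex V. The other 12 matched by name only and were kept apart: 7 complex I assembly factors, the supercomplex factor COX7A2L, the ATP synthase inhibitor ATP5IF1, the pseudogenes ATP5F1EP2 and UQCRBP1, and NDUFV1-DT, a transcript that diverges from the NDUFV1 promoter. Of 9 listed subunits not read, 4 (ATP5F1E, NDUFC2, NDUFS5 and UQCRHL) share their probe sets with other symbols, and the others were not analysed here. The 13 subunits encoded by mitochondrial DNA were not analysed here either. Where a gene had several probe sets, the one with the highest mean over the 4 groups was used.

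A549 cells, a human lung adenocarcinoma line used as a model of type II alveolar epithelium, were exposed for 4 hr at an air-liquid interface, and RNA was taken 9 hr later. PCA (photochemically altered) pollutants, the aged urban mix of the labels, were drawn in the evening from a sunlit outdoor chamber and were set against an evening control in humidified incubator air. Primary pollutants, the fresh urban mix, were drawn in the morning and were set against a morning control in the same kind of air. There were 8 Affymetrix Human Gene 1.0 ST arrays, 2 per group, and the arrays of a group came from a single exposure run, so that mixture, time of day and run cannot be told apart. All p-values measure the spread between such arrays, and they do not cover the spread between runs. Values are log2 signals normalized by the authors with robust multichip average (RMA). A gene is said to have fallen or risen where its Benjamini-Hochberg adjusted p from limma, taken over all probe sets tested, was under 0.05 at any size of change. A stricter rule, which added a change of at least 1.5-fold either way, is named where it was used.

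The respiratory chain carries electrons from NADH and succinate to oxygen. Complex I (NADH dehydrogenase) and complex II (succinate dehydrogenase) pass electrons to coenzyme Q, complex III passes them to cytochrome c, and complex IV (cytochrome c oxidase) reduces oxygen. Complexes I, III and IV pump protons, and complex V (ATP synthase) uses the resulting gradient to make ATP. Complexes I, III, IV and V combine subunits of the nuclear and the mitochondrial genome, while all subunits of complex II are nuclear. Transcription of the nuclear genes is known to depend on factors such as NRF-1, GABP (an ETS family factor, also called NRF-2) and YY1.

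The cells carried the epithelial markers of the line. The A549 and epithelial markers were read for 7 of 7 genes, with mean log2 signals between 8.97 and 13.87, and the 5 alveolar type II markers read lay between 5.43 and 7.66. Of the 5 leukocyte markers, 4 reached a signal of 30, and PTPRC, which defines leukocytes, did not on any array. Their means lay between 4.38 and 9.58, the highest being that of CD68, a lysosomal gene that is not confined to leukocytes, and their linear signals summed to 1001 to 1025 on PCA arrays and 967 to 994 on evening control arrays. The epithelial list summed to linear signals of 36513 to 38105 on PCA arrays and 38541 to 40710 on evening control arrays. CDH1, the epithelial adhesion gene E-cadherin, fell by 1.11 on the log2 scale (SE 0.07, adjusted p = 0.000699, limma). It was the only 1 of the 7 to pass on the probe set read. EPCAM did not pass on the set read (-0.44, adjusted p = 0.189, limma) but passed on its second (-0.47, adjusted p = 0.0139). Of the 6 fibroblast markers COL1A1 fell, while COL1A2 and DCN rose, and no leukocyte, endothelial or erythroid marker passed. The part of these changes in the results for respiratory genes was not tested. In bulk RNA, a smaller share of cells carrying a transcript and less transcript per cell cannot be told apart.

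After PCA pollutants, respiratory chain and ATP synthase genes lay slightly below the evening control as a group, and 11 of 89 genes tested fell, 1 rose and 77 did not pass. The 11 that fell were NDUFB5, NDUFA2, NDUFV1, NDUFA5 and NDUFA10 of complex I, SDHA and SDHD of complex II, UQCR10, UQCRH and UQCRC2 of complex III, and ATP5PD of complex V. The gene that rose was COX6A2, the heart and skeletal muscle form of subunit 6A of complex IV. Among all 17470 genes tested, 19.7% passed in either direction, 14.1% lower and 5.63% higher. The share that fell among the respiratory genes (12.4%) was therefore near that of all genes and is no result about them. No respiratory gene reached the stricter rule, which 3.53% of all genes met. At an unadjusted p under 0.05 there were 33 genes (37.1%), against 36.9% of all genes. COX7B2, a testis form, remained under a signal of 30 and was not tested. COX6B2, another testis form, reached that limit only on the PCA arrays of this comparison, so that it had to lie higher there, and the other 88 genes reached it in both groups.

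Most respiratory genes lay on the same side of 0. Their median log2 fold change was -0.16, against -0.0017 for all genes tested, and 78 of 89 (87.6%) were below 0, against 50.3% of all genes. In 59 genes (66.3%) both PCA arrays lay below both evening controls, against 36.6% of all genes, and in 10 both lay above, against 31.7%. The middle quartiles of the members ran from -0.23 to -0.07. Changes of this size were close to the precision of the arrays, since the median SE of a log2 fold change over these genes was 0.08. These shares and medians describe the list and were not tested.

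**Figure D1:**
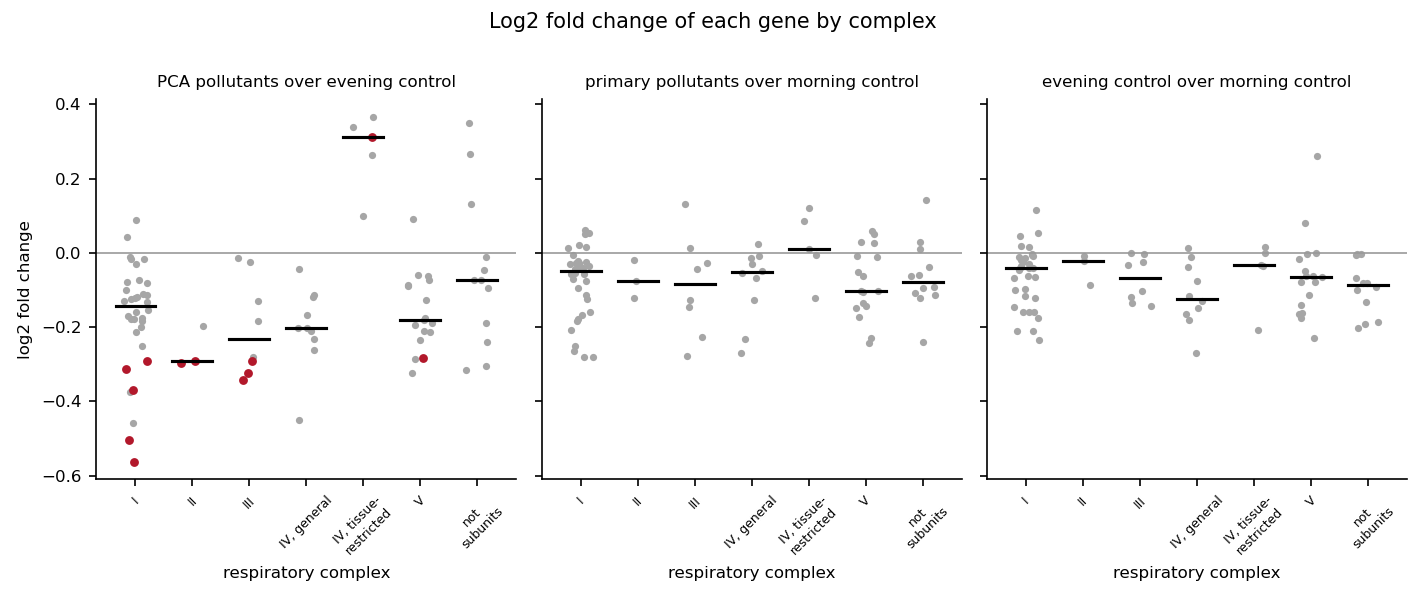
Log2 fold change of each gene tested (points) by respiratory complex, for PCA pollutants over evening control, primary pollutants over morning control and evening control over morning control. Black bars are medians and red points are genes with an adjusted p under 0.05. Red points occur only in the PCA panel, where the bars of the 5 complexes lie between -0.14 and -0.29 (complex IV without its tissue-restricted forms) and the 5 points of the tissue-restricted forms of complex IV, COX6B2 included, lie between 0.10 and 0.37.

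Most respiratory genes are strongly expressed, and strong signals were lower on PCA arrays in general. The interquartile range of all probe sets was 2.61 and 2.57 on the PCA arrays, against 2.80 and 2.82 on the evening controls. It was 2.69 and 2.78 on the primary arrays, against 2.80 and 2.81 on the morning controls. In the quartile of highest mean signal, 4368 genes had a median log2 fold change of -0.13 after PCA pollutants, and 74.7% of them were below 0. The 52 respiratory genes in that quartile had a median of -0.18, and 51 of them (98.1%) were below 0. Of these 52 genes 17.3% fell, against 26.2% of all genes in the quartile. In the lowest quartile, the median over all genes was 0.14, and 4 of the 5 respiratory genes there, COX6B2 included, were above 0. The shift of the respiratory genes was smaller under 2 normalizations that make the arrays' distributions alike. The median became -0.06 with cyclic loess (all genes -0.0088) and -0.06 with quantile normalization (all genes -0.0095). With each of them 4 respiratory genes fell and 2 rose, while 10% and 10.7% of all genes fell.

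**Figure D2:**
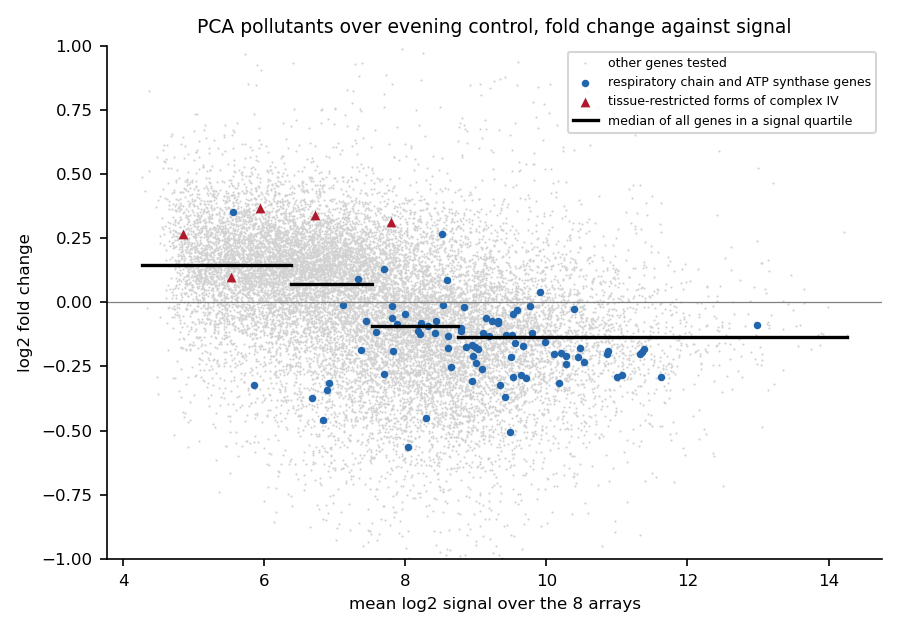
Log2 fold change after PCA pollutants (vertical axis) against mean log2 signal over the 8 arrays (horizontal axis) for all genes tested, with black bars at the median of each signal quartile. The vertical axis ends at 1 either way and leaves out 62 genes. Most respiratory genes (blue) lie on the right and below 0, while the 5 tissue-restricted forms of complex IV (red triangles), COX6B2 included, lie above 0 and left of most of them.

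The direction also depended on how the arrays were scaled. The 63 cytoplasmic ribosomal protein genes read had a median of -0.15 (log2), close to that of the respiratory genes. When arrays were centred on the median deviation of these ribosomal genes, the median of all genes moved to 0.15 and that of the respiratory genes to -0.0080. The respiratory genes remained 0.16 below all genes, but 2 of them then fell (NDUFB5 and NDUFA2) and 7 rose. Of all genes, 7.06% then fell and 32.8% passed in either direction, with 1243 genes lower and 4525 higher. With arrays centred on their own medians, 18.5% of all genes fell, and 22 respiratory genes fell and 0 rose. With arrays centred on the median level of the ribosomal genes, 10.1% of all genes fell, and 3 respiratory genes fell and 0 rose. Single arrays mattered as well, and which genes passed changed when 1 array was left out. Such a fit leaves 1 array in a group, so only medians are given. The median of the respiratory genes was -0.14 without PCA replicate 1 (all genes -0.0013) and -0.17 without PCA replicate 2 (all genes -0.013). It was -0.16 without evening control replicate 1 (all genes -0.013) and -0.12 without evening control replicate 2 (all genes 0.0017). NDUFB5 passed in 19 of 20 alternatives and NDUFA2 in 18 of 20, while the other 10 genes passed in 7 to 13.

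**Figure D3:**
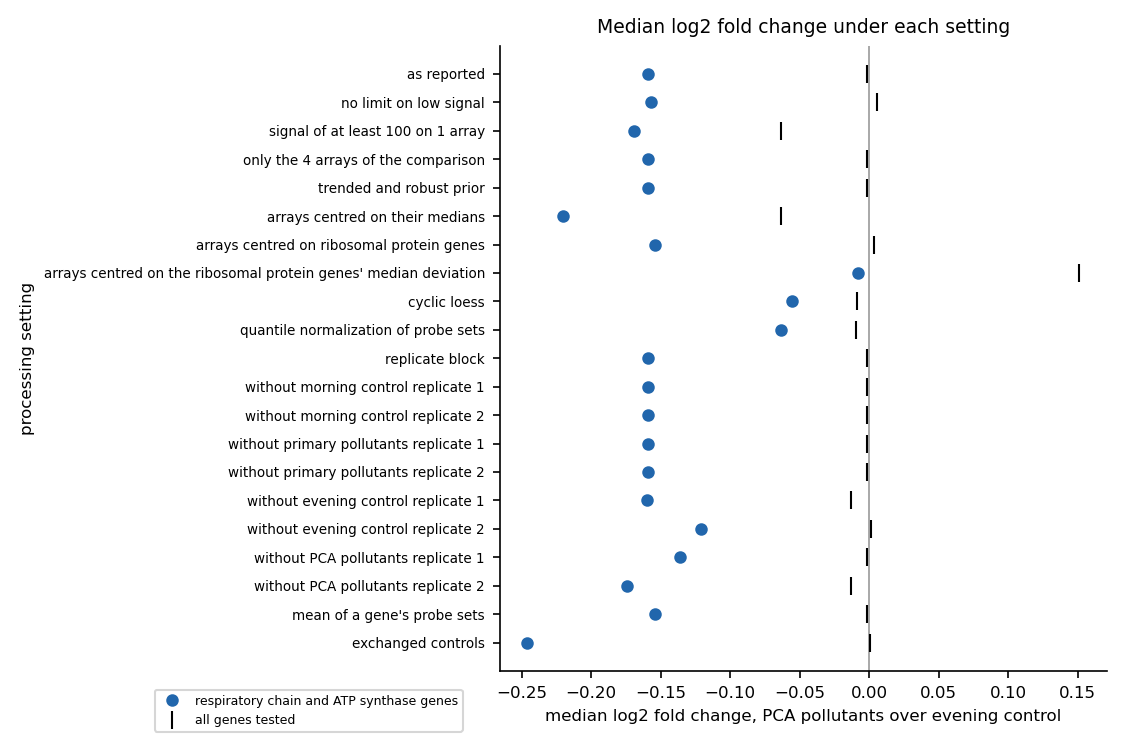
Median log2 fold change after PCA pollutants (horizontal axis) of the respiratory chain and ATP synthase genes (blue points) and of all genes tested (black ticks) under each processing setting (vertical axis), where exchanged controls means PCA pollutants over the morning control. The blue point lies to the left of the tick under every setting shown. It comes closest to 0, at -0.0080, when arrays are centred on the ribosomal protein genes' median deviation.

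Complex I, the largest complex, held 5 of the 11 genes that fell. Its 34 subunits had a median log2 fold change of -0.14, and 32 were below 0. All counts by complex are to be read against the 14.1% of all genes that fell and the 50.3% that lay below 0. NDUFB5, an accessory subunit of the membrane arm, had log2 signals of 9.08 and 9.18 on PCA arrays, against 9.63 and 9.63 on evening controls. The primary arrays had 9.41 and 9.52, against 9.81 and 9.68 on the morning controls. All 4 exposed arrays were therefore below all 4 controls. This order adds no support, since NDUFB5 was picked by a test on the PCA and evening control arrays. The share of all genes with this order was not counted. The log2 fold change of NDUFB5 after PCA pollutants was -0.50 (SE 0.08, adjusted p = 0.00764, limma), which is 0.705 times the control level. It was the smallest adjusted p among the respiratory genes, and it moved to 0.0532 without evening control replicate 2.

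NDUFA2, an accessory subunit of the matrix arm, showed the largest fall among the genes that passed. It had log2 signals of 7.65 and 7.82 on PCA arrays, against 8.16 and 8.44 on evening controls. The log2 fold change was -0.56 (SE 0.11, adjusted p = 0.0153, limma). The evening controls differed by more than the PCA arrays did, and the call was lost without evening control replicate 2 or PCA replicate 1. After primary pollutants NDUFA2 had 7.96 and 7.91, against 8.25 and 8.12 on the morning controls, and this difference did not pass (-0.25, adjusted p = 0.603).

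NDUFV1, the core subunit that binds NADH and flavin mononucleotide, had tight replicates. Its log2 signals were 9.93 and 9.95 on PCA arrays, against 10.25 and 10.25 on evening controls, and it fell by 0.31 (SE 0.07, adjusted p = 0.0188). NDUFA5, an accessory subunit of the matrix arm, had 9.13 and 9.21 on PCA arrays, against 9.53 and 9.54 on evening controls, and fell by 0.37 (SE 0.08, adjusted p = 0.0204). NDUFA10, another accessory subunit, had 9.31 and 9.36 on PCA arrays, against 9.68 and 9.57 on evening controls, and fell by 0.29 (SE 0.08, adjusted p = 0.0366). In each of these genes the PCA and control arrays did not overlap. This adds no support, since the genes were picked by a test on the same arrays.

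The other core subunits of complex I read here, most of which carry iron-sulfur clusters of the matrix arm, did not pass. NDUFS1 had a log2 fold change of -0.20 (adjusted p = 0.0742) and NDUFS3 of -0.21 (adjusted p = 0.0769). NDUFV2 was at -0.07, NDUFS7 at -0.11 and NDUFS8 at 0.09. NDUFS8 was 1 of only 2 complex I genes above 0, and both of its PCA arrays (8.67 and 8.63) lay above both evening controls (8.58 and 8.54). The 13 accessory subunits of the NDUFA series had a median of -0.13 and the 11 of the NDUFB series a median of -0.15, and all 13 and all 11 were below 0. NDUFB3, singled out after its values were seen, had a larger difference than most (-0.46) but spread widely, with 6.75 and 6.29 on PCA arrays, against 7.10 and 6.86 on evening controls (SE 0.22, adjusted p = 0.167).

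Complex II links the citric acid cycle to the chain. All 3 of its subunits read here lay below both evening controls on both PCA arrays, against 36.6% of all genes. SDHA, the flavoprotein that oxidizes succinate, had log2 signals of 10.82 and 10.72 on PCA arrays, against 11.06 and 11.06 on evening controls. It fell by 0.29 (SE 0.07, adjusted p = 0.0273, limma). After primary pollutants SDHA had 11.07 and 11.06, against 11.07 and 11.10 on the morning controls, which overlapped. SDHD, a membrane anchor of the complex, had 9.60 and 9.44 on PCA arrays, against 9.85 and 9.78 on evening controls, and fell by 0.30 (SE 0.08, adjusted p = 0.0423). A second probe set with the SDHD symbol alone, of lower signal, gave -0.04 (adjusted p = 0.744), so the call for SDHD rests on the probe set read. The loci of the probe sets are not given in the sources used here, so whether a set read the gene or a related copy is not known, which bears most on the genes with several sets (SDHD and SDHC here, ATP5MK below). SDHC, the other anchor, was at -0.20 (adjusted p = 0.0901) on the probe set read and at -0.32 (adjusted p = 0.0661) on its second.

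In complex III 3 of 8 subunits fell, against 14.1% of all genes, and all 8 were below 0, against 50.3%, with a median of -0.23. UQCR10, a small accessory subunit, had log2 signals of 9.12 and 9.18 on PCA arrays, against 9.47 and 9.47 on evening controls, and fell by 0.32 (SE 0.08, adjusted p = 0.0282). UQCRH, the hinge protein near cytochrome c1, had 6.53 and 6.60 on PCA arrays, against 6.83 and 6.99 on evening controls, and fell by 0.34 (SE 0.09, adjusted p = 0.0328). UQCRC2, a core protein, had 11.37 and 11.47 on PCA arrays, against 11.77 and 11.65 on evening controls, and fell by 0.29 (SE 0.08, adjusted p = 0.0343). The PCA and control arrays did not overlap in these 3 genes, which were picked by a test on the same arrays. The other core protein, UQCRC1, was at -0.13 (adjusted p = 0.388), and CYC1, which encodes cytochrome c1, at -0.03 (adjusted p = 0.812).

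None of the 10 general subunits of complex IV passed, but all 10 were below 0, against 50.3% of all genes, with a median of -0.20. COX6B1 came nearest, with log2 signals of 10.31 and 10.40 on PCA arrays, against 10.57 and 10.60 on evening controls (-0.23, SE 0.07, adjusted p = 0.0603). COX6A1, the general form of subunit 6A, had 11.16 and 11.21 on PCA arrays, against 11.41 and 11.36 on evening controls (-0.20, adjusted p = 0.0763). COX5A was at -0.20 (adjusted p = 0.0766), COX4I1 at -0.17 (adjusted p = 0.117) and COX5B at -0.12 (adjusted p = 0.293).

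Of the 5 tissue-restricted forms of complex IV tested, 1 rose after PCA pollutants, against 5.63% of all genes, and 5 genes are few. COX6A2 had log2 signals of 8.03 and 8.06 on PCA arrays, against 7.66 and 7.80 on evening controls, and rose by 0.31 (SE 0.08, adjusted p = 0.0300, limma), which is 1.24 times the control level. The 2 primary arrays (7.72 and 7.70) lay between the 2 morning controls (7.68 and 7.75). COX7A1, a form of heart and skeletal muscle, was at 0.37 (adjusted p = 0.131), and COX4I2, a form of lung that responds to hypoxia, at 0.34 (adjusted p = 0.159). COX8C, a testis form, was at 0.10 (adjusted p = 0.613). COX6B2, tested only through its PCA arrays (4.92 and 5.09, against 4.74 and 4.74 on evening controls), was at 0.26 (adjusted p = 0.287). COX6B2, COX7A1 and COX8C lay in the lowest quartile of signal and COX4I2 in the next, where the medians of all genes were also above 0 (0.14 and 0.07). COX6A2 lay in the quartile above these, where the median of all genes was -0.09. COX6A2 kept its direction under all 20 alternatives and passed in 11 of them.

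**Figure D4:**
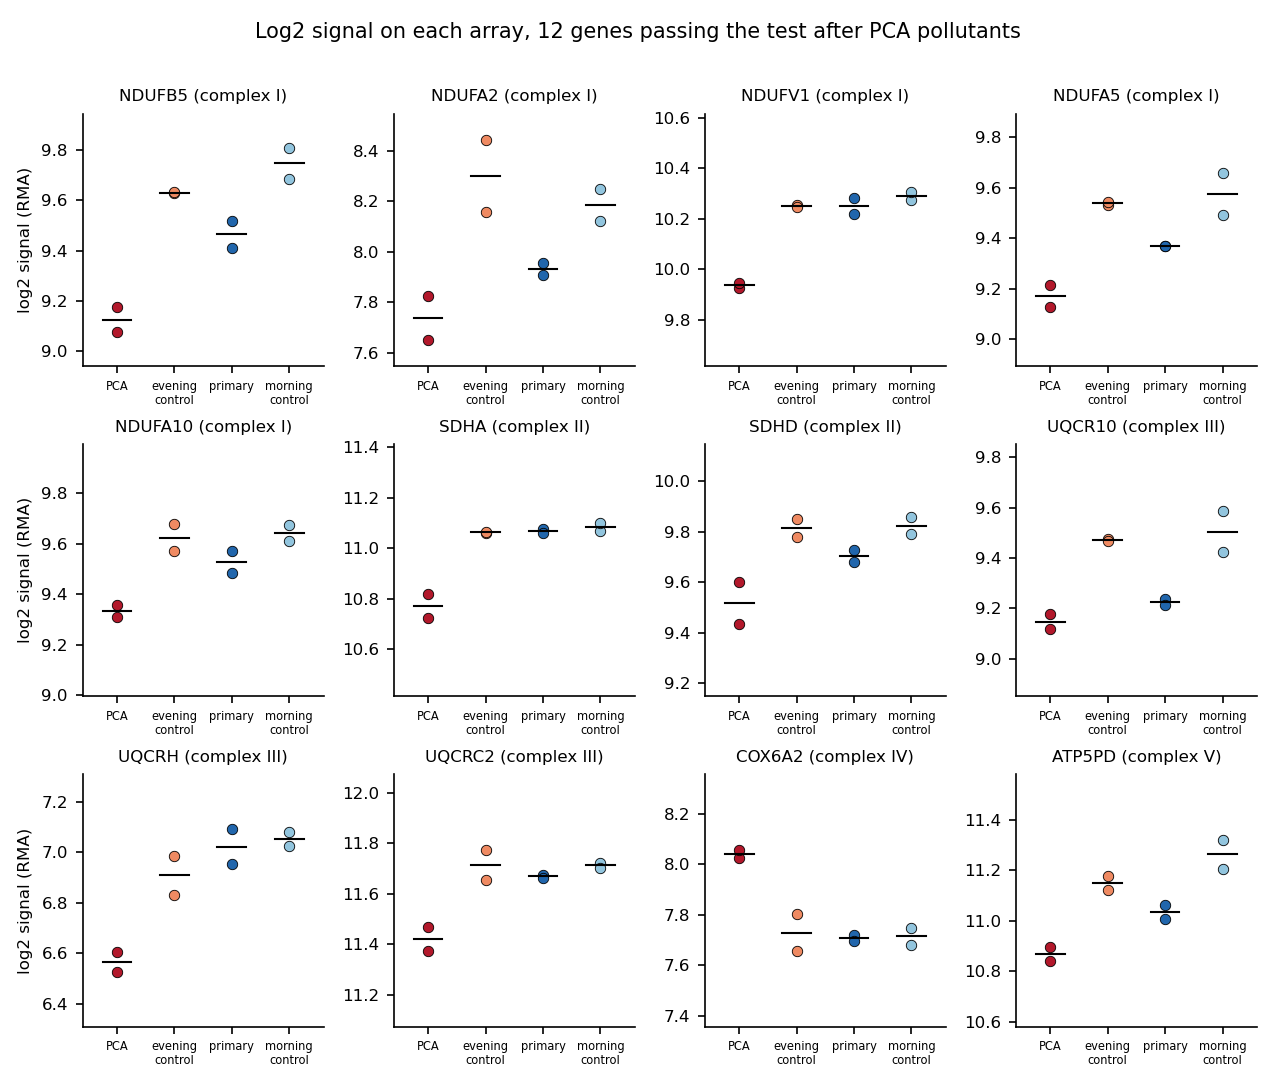
Log2 signal (vertical axes, each spanning the same range) on each array (points) and group mean (bars) for the 12 genes that passed after PCA pollutants, with PCA left of the evening control and primary left of the morning control. In 11 genes both PCA arrays lie below both evening controls, and in COX6A2 both lie above. The genes were picked by a test on these same arrays.

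In complex V 1 of 17 subunits fell, against 14.1% of all genes, 16 were below 0, and the median was -0.18. ATP5PD, subunit d of the peripheral stalk, had log2 signals of 10.90 and 10.84 on PCA arrays, against 11.18 and 11.12 on evening controls, and fell by 0.28 (SE 0.08, adjusted p = 0.0379). The primary arrays of ATP5PD (11.01 and 11.06) also lay below both morning controls (11.32 and 11.21), with a difference of -0.23 that did not pass (adjusted p = 0.508). ATP5MC2, a subunit of the membrane ring, was at -0.28 (adjusted p = 0.0516), and ATP5MGL, a gene like that of subunit g, at -0.32 (adjusted p = 0.0662). In the catalytic head none passed. Its alpha subunit ATP5F1A was at -0.19 (adjusted p = 0.101), its beta subunit ATP5F1B at -0.09 (adjusted p = 0.383), and its gamma subunit ATP5F1C at -0.18 (adjusted p = 0.115). ATP5MK, a small membrane subunit, did not pass on the probe set read (-0.21, adjusted p = 0.234) but passed on its second (-0.28, adjusted p = 0.0402), and which of them reads the gene is not known.

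Among the 12 genes matched by name only, none passed in the PCA comparison, 4 had an unadjusted p under 0.05, and the median was -0.07. NDUFAF4, a complex I assembly factor, had log2 signals of 8.52 and 8.66 on PCA arrays, against 8.30 and 8.34 on evening controls (0.27, adjusted p = 0.0508). NDUFAF7, a methyltransferase that acts in complex I assembly, had 8.80 and 8.59 on PCA arrays, against 9.00 and 8.99 on evening controls (-0.31, adjusted p = 0.0522). These 2 assembly factors thus lay on opposite sides of 0, both just outside the threshold. NDUFAF6 was at -0.32 (adjusted p = 0.0862) and COX7A2L at -0.24 (adjusted p = 0.0948). The other 8 lay between -0.19 (ATP5IF1) and 0.35 (NDUFV1-DT).

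Promoter sequences were set beside these values because transcription of these genes is known to depend on NRF-1, GABP and YY1. For GABPA, the DNA-binding subunit of GABP, the 2 probe sets with its symbol alone lay on opposite sides of 0, so no direction is given. The set of higher mean had log2 signals of 8.13 and 8.13 on PCA arrays, against 8.74 and 8.55 on evening controls (-0.52, SE 0.12, adjusted p = 0.0243, limma). The other had 7.60 and 7.79 on PCA arrays, against 7.49 and 7.56 on evening controls (0.17, SE 0.08, adjusted p = 0.179). The 300 bases from 250 before to 50 after the start of each gene (RefSeq, GRCh38.p14) were available for 65 of the 78 subunit genes and were searched on both strands. The ETS core CCGGAAG occurred in 29.2% of the 65, against 10.7% of all 27305 promoters. The NRF-1 core (the first capitals in the SDHD sequence) occurred in 6.15%, against 1.36% of all, and the YY1 site AAGATGGCG in 10.8%, against 1.85%. The ETS core and the YY1 site can overlap by 3 letters. Among the 10 genes that fell and had a promoter sequence, 3 held an ETS core, a share of 30% beside 29.1% of the other 55. An NRF-1 core was held by 1 of the 10 (10%), beside 5.45% of the other 55, and a YY1 site by 0 of the 10, beside 12.7%. These shares were not tested, and 10 genes are few. The promoters printed are those 3, NDUFA2 as the gene that fell with the smallest p among those without a match, and COX6A2, which also had none. Each is given 5′ to 3′ for the 250 bases before the start, with matches in capitals, on GRCh38.p14. CTTCCGG is the ETS core on the opposite strand, and it starts 46 bases before the gene start in UQCRH, 101 in ATP5PD and 77 in SDHD. In SDHD an NRF-1 core starts 110 bases before the gene start, and the limit on the SDHD probe sets given above holds here too. A match is a description of the letters and not of factor binding.
NDUFA2 promoter, chr5:140647631-140647880, minus strand: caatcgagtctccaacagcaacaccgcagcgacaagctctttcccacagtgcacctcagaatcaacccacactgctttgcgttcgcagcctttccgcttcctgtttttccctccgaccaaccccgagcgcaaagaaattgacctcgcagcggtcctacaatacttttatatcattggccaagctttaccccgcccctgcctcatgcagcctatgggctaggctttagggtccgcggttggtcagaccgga
UQCRH promoter, chr1:46303448-46303697, plus strand: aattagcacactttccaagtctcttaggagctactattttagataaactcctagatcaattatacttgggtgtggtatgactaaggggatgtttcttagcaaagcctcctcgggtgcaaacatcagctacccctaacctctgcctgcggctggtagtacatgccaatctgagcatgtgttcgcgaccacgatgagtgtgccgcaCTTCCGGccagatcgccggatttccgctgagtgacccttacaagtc
ATP5PD promoter, chr17:75046970-75047219, minus strand: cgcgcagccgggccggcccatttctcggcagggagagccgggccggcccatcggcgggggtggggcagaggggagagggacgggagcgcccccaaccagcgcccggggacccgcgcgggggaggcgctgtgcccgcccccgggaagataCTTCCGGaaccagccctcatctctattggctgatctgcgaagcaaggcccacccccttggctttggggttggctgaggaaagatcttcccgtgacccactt
SDHD promoter, chr11:112086623-112086872, plus strand: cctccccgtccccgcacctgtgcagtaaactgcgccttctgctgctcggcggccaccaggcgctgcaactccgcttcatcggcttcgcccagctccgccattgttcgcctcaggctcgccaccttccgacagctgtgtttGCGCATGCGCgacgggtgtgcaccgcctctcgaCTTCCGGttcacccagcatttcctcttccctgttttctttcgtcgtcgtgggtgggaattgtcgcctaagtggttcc
COX6A2 promoter, chr16:31428361-31428610, minus strand: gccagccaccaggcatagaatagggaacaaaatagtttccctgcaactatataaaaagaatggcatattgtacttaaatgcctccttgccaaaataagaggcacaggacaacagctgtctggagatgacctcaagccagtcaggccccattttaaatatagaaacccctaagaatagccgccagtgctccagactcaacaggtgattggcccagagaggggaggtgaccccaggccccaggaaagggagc

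Genes that build and feed the chain were read from lists compiled with earlier results of these data known. In the PCA comparison 2 of 16 complex I assembly factors tested fell, as did 0 of 3 of complex II, 0 of 6 of complex III, 2 of 21 of complex IV and 2 of 5 of complex V, and none rose, against 14.1% lower and 5.63% higher among all genes. COX15, which makes heme A for complex IV, fell by 0.40 (SE 0.07, adjusted p = 0.0115), and NUBPL, which delivers iron-sulfur clusters to complex I, fell by 0.49 (SE 0.13, adjusted p = 0.0400). ATPAF2 and ATPAF1, chaperones of the ATP synthase head, fell by 0.35 (adjusted p = 0.0201) and 0.29 (adjusted p = 0.0351). Of 15 genes for cytochrome c and coenzyme Q synthesis 5 fell (33.3%) and 1 rose, against 14.1% lower and 5.63% higher among all genes. COQ8B, an atypical kinase of coenzyme Q synthesis, fell by 0.43 (SE 0.07, adjusted p = 0.00784), and the related COQ8A fell by 0.35 (adjusted p = 0.0135). PDSS1, which makes the side chain of coenzyme Q, rose by 0.35 (SE 0.10, adjusted p = 0.0494). This last gene moved against the 5 COQ genes. Of 16 regulators of respiratory chain transcription none passed apart from the 1 probe set of GABPA given above, and PPARGC1A, a coactivator of mitochondrial biogenesis, was at -0.41 (adjusted p = 0.0583).

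Among the metabolic genes read beside the chain, the stricter rule was met by PDK2, 1 of 12 genes of pyruvate entry, and PFKFB3, 1 of 18 glycolytic genes. None of the 11 citric acid cycle genes or 11 accessory factors of respiration met it, while 3.53% of all genes did. So few genes are no result about the lists. The counts of genes that fell or rose in these lists stand beside 14.1% lower and 5.63% higher among all genes. Of 12 genes of pyruvate entry 5 fell, and PDK2, a kinase that inactivates pyruvate dehydrogenase, had log2 signals of 8.34 and 8.28 on PCA arrays, against 9.14 and 9.11 on evening controls (-0.82, SE 0.08, adjusted p = 0.00186). The kinases PDK3 and PDK1 fell by 0.54 (SE 0.07, adjusted p = 0.00323) and 0.41 (SE 0.09, adjusted p = 0.0180), and MPC2, a subunit of the mitochondrial pyruvate carrier, fell by 0.47 (adjusted p = 0.0259). Of 18 glycolytic genes 3 fell and 1 rose. PFKFB3, which makes the activator fructose 2,6-bisphosphate, had 9.36 and 9.28 on PCA arrays, against 10.21 and 10.18 on evening controls (-0.87, SE 0.07, adjusted p = 0.00108). PFKP, the platelet form of phosphofructokinase, had 10.02 and 9.88 on PCA arrays, against 9.41 and 9.40 on evening controls, and rose by 0.55 (SE 0.08, adjusted p = 0.00676). Of 11 citric acid cycle genes 1 fell, SUCLG1 of succinyl-CoA ligase, by 0.33 (SE 0.07, adjusted p = 0.0190). Of 11 accessory factors of respiration 2 fell, and UCP2, an uncoupling protein homolog, did so by 0.45 (SE 0.08, adjusted p = 0.0102). HIGD1A, also in this list, did not pass on the probe set read (0.28, adjusted p = 0.0669) but passed on its second (0.37, adjusted p = 0.0386, limma).

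After primary pollutants no respiratory gene passed, and neither did any of the 17381 genes tested (0%, limma). With a trended and robust prior 24 genes passed, none of them a respiratory gene. At an unadjusted p under 0.05 there were 9 respiratory genes (10.1%), against 7.9% of all genes, and all 9 were below 0. The median log2 fold change was -0.06, against -0.0072 for all genes, and 70 of 89 (78.7%) were below 0, against 52.6%. Both primary arrays lay below both morning controls in 33 genes (37.1%), against 21.7% of all genes, and above them in 2, against 17%. UQCR10 had log2 signals of 9.24 and 9.21 on primary arrays, against 9.58 and 9.42 on morning controls (-0.28, SE 0.08, adjusted p = 0.467). NDUFB5, given above, was at -0.28 (adjusted p = 0.470). The 4 peripheral stalk subunits of ATP synthase read here, ATP5PB, ATP5PD, ATP5PF and ATP5PO, were lower on both primary arrays than on both morning controls, with a median of -0.19, but none passed. ATP5PB had 7.69 and 7.76 on primary arrays, against 7.95 and 7.98 on morning controls (-0.24, SE 0.08, adjusted p = 0.508). NDUFA6, an accessory subunit of complex I, was at -0.28 (adjusted p = 0.509) and COX7A2 at -0.27 (adjusted p = 0.548). ATP5MG, the general form of subunit g, was at -0.17 (adjusted p = 0.585), UQCR11 at -0.15 (adjusted p = 0.639), and the pseudogene UQCRBP1 at -0.24 (adjusted p = 0.553). UQCRQ, a small subunit of complex III, was at -0.23 (adjusted p = 0.631) and COX7C, a general subunit of complex IV, at -0.23 (adjusted p = 0.634). The direction of the group was not stable, since the median became 0.0043 when the primary arrays were set against the evening control and 0.05 when arrays were centred on the ribosomal genes' median deviation.

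The PCA and primary responses were not shown to differ in any respiratory gene. In the test of the PCA response minus the primary response none passed, against 0.439% of all genes (0.348% lower and 0.0912% higher), and 5 respiratory genes (5.62%) had an unadjusted p under 0.05, against 17.6% of all genes. The smallest adjusted p was that of COX6A2, whose PCA response exceeded its primary response by 0.32 (SE 0.11, adjusted p = 0.197). NDUFV1 had a difference of -0.27 (SE 0.09, adjusted p = 0.202), SDHA of -0.27 (SE 0.10, adjusted p = 0.215) and UQCRH of -0.31 (SE 0.12, adjusted p = 0.245). In these 4 genes the primary response lay between -0.04 and -0.01. The median difference over the respiratory genes was -0.10, against -0.01 over all genes, and 60 of 89 (67.4%) were below 0, against 52.7%. It became -0.0043 with cyclic loess (45 of 89 below 0, all genes -0.01) and -0.02 with quantile normalization (49 of 89 below 0).

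Between the controls, too, most respiratory genes lay on the same side of 0. None passed between the evening and the morning control, and no gene of the 17310 tested did (0%). The median of the respiratory genes was -0.06, against 0.0034 for all genes, and 79 of 89 (88.8%) were below 0, against 48.7%. COX6B2 is among the 79 and reached the signal limit only on a morning control in this comparison, and 78 of the other 88 were below 0. At an unadjusted p under 0.05 there were 6 respiratory genes, against 4.97% of all genes. COX8A, singled out after its values were seen, had the smallest p, with log2 signals of 9.42 and 9.41 on evening controls, against 9.65 and 9.71 on morning controls (-0.27, SE 0.08, adjusted p = 1.00). The median turned to 0.02 with arrays centred on the median level of the ribosomal genes and to 0.03 with their median deviation. Set against the morning control, PCA arrays had a median of -0.25 over the respiratory genes, against 0.00047 over all genes. Of the respiratory genes 31 passed lower and 1 higher, while 14.1% of all genes passed lower and 20.1% in either direction. The count of respiratory genes thus depends on which control is used.

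The level on each array followed these comparisons. Relative to each gene's mean over the 8 arrays, the median of the 90 genes was -0.15 and -0.12 on the PCA arrays, against 0.0070 and 0.02 on the evening controls. It was 0.01 and 0.03 on the primary arrays, against 0.10 and 0.08 on the morning controls. The PCA arrays were lowest and the morning controls highest, and the evening controls and primary arrays overlapped. The 5 complexes shared this order between PCA arrays and all other arrays. Complex II, with 3 genes, spread most on the PCA arrays, at -0.15 and -0.27.

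**Figure D5:**
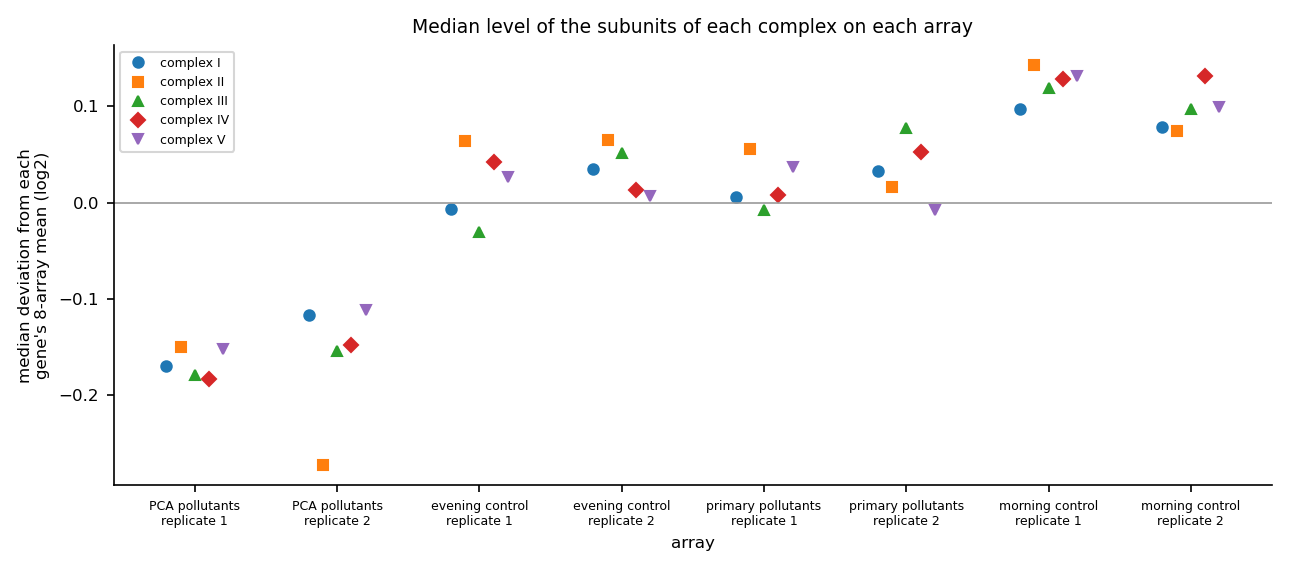
Median deviation of the subunits of each complex from each gene's mean over the 8 arrays (vertical axis, log2) on each array (horizontal axis), with the tissue-restricted forms of complex IV left out. All 5 complexes lie between -0.11 and -0.27 on the PCA arrays and at -0.03 or above on every other array.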

How the data were processed

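RNA of A549 cells was measured on 8 arrays, 2 per group, and the deposited table holds log2 values made by the authors with RMA, with Partek 6.4 named in the submitters' processing notes. Background correction and scanner flags were therefore not varied. Of 28869 probe sets, 19310 carried a single gene symbol, 1752 several and 7807 none, and genes were read from the first kind. Group means were fitted over all 8 arrays with limma 3.58.1 in R 4.3.3, with 4 residual degrees of freedom. Probe sets that reached a linear signal of 30 on at least 1 array of a comparison were tested (25264 for PCA pollutants, 25040 for primary pollutants), with Benjamini-Hochberg adjustment over all of them. The fit was run on simulated data with added changes larger than those of most respiratory genes. That run therefore does not bear on calls of their size. Shares over all genes use the probe set of highest mean per gene. The number of arrays limits the precision. Named genes were all that passed, the 3 of smallest p in each complex for both exposures, core and tissue-restricted subunits, and further genes drawn from those that are no subunits and from the 4 of smallest p in each context list. The loci of the probe sets are not given in the sources used here. The members and lists were chosen with earlier results of these data known. Quantile normalization, exchanged controls and centring on the ribosomal genes' median deviation were chosen after seeing the data. Promoters came from RefSeq, GRCh38.p14. Figures were drawn with matplotlib 3.10.9.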

Additional observations from a re-analysis of the deposited data

How the results depend on the processing

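With 2 arrays per group, counts of genes past the threshold depended on nearly every choice. Of the respiratory genes, 12 passed after PCA pollutants as reported, 20 with a signal limit of 100, 5 with only the 4 arrays of the comparison, 26 with a trended and robust prior, 22 with arrays centred on their medians, 3 with arrays centred on the ribosomal genes' level, 6 with cyclic loess, 6 with quantile normalization and 32 with exchanged controls. Leaving out 1 array gave 1 to 19. Replicate numbers did not pair the arrays (correlation of deviations -0.000113 for PCA and evening control arrays and -0.08 for primary and morning control arrays). With the replicate number as a block, 15.5% of all genes and 7 respiratory genes passed. The stricter rule was met by 1 gene with median centring, 1 with exchanged controls and 0 to 2 without 1 array. For the stricter rule, the share of all genes is given above only for the setting as reported. The PCA median was -0.22 with median centring, -0.0080 with the ribosomal median deviation, -0.0556 with cyclic loess and -0.0636 with quantile normalization. It was -0.25 with exchanged controls and -0.12 to -0.17 without 1 array. The primary median was -0.0746 with median centring, -0.0107 with the ribosomal level, 0.0532 with the ribosomal median deviation, -0.0347 with cyclic loess, -0.0388 with quantile normalization, 0.0043 with exchanged controls and -0.0816 to -0.053 without 1 array. For the difference of responses, 1 respiratory gene passed with the trended and robust prior, beside 5.6% of all genes. The evening over morning control median was 0.0168 with the ribosomal level, 0.0251 with the ribosomal median deviation and -0.0857 to -0.0555 without 1 array. None of the 12 genes that passed changed sign under the 20 alternatives. The cause of these shifts was not tested.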
